A study of Rattus norvegicus with 19 samples.

Results

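The Srsf, Hnrnp and Sf3 families of splicing factor genes were followed in rat mammary tissue. A gene was a member when a non-control probe of the array carried an accession that RefSeq pairs with a symbol starting with Srsf, Hnrnp or Sf3. This gave 50 probes for 34 genes, 10 Srsf, 16 Hnrnp and 8 Sf3, out of 15168 genes with a named probe. All 34 members passed the filter on dim probes, as did 12789 genes in all, although Srsf12 was well above background on only 1 of 6 normal gland arrays and 9 of 13 carcinoma arrays. The symbol rule, not a measured value, chose the members.

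Splicing removes introns from a primary transcript, and the spliceosome carries it out on sites that RNA-binding proteins help to choose. SR proteins, made by the Srsf genes, bind exonic enhancers through RNA recognition motifs and recruit spliceosome parts through a serine and arginine rich tail. The hnRNP proteins coat nascent transcripts and often, though not always, oppose exon inclusion. The SF3a and SF3b complexes, made by the Sf3 genes, belong to the U2 snRNP, which recognises the intron branch point.

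There were 19 samples: 6 of normal mammary gland and 13 of mammary carcinoma, the latter described as radiation-induced. Every sample came from a female F1 rat with Sprague-Dawley and Copenhagen parentage. The treatment text says that rats were either untreated or given whole-body gamma rays from 137Cs, 4 Gy at 0.5 Gy per minute, at 7 weeks of age. The radiation history of each normal gland, and the age at which tissue was taken, are not given in the sources used here. Each sample went to 1 single-colour Agilent array, on which Cy3-labelled cRNA made from 0.2 µg of total RNA was hybridised. The samples carry separate codes, but nothing states that each came from a separate rat, so the p-values measure the spread between these samples. One normal gland and 3 carcinomas have a code starting with a letter and the other 15 a code starting with a number; the labels do not explain the codes.

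The arrays differed in overall signal. Their 75th percentile of processed signal, called brightness here, ran from 295.5 to 673 on normal gland arrays and from 485 to 1428 on carcinoma arrays. Levels are log2 signals minus the log2 of that percentile, so a level of 0 means a probe as bright as the 75th percentile of its own array. No level is compared between probes. All 8 measured adipocyte markers were lower in carcinomas, as were 6 of 7 endothelial, 7 of 9 macrophage and 7 of 9 lymphocyte markers. Of 13 luminal epithelial markers 3 were higher and 10 did not pass, of 8 fibroblast markers 3 were lower, and of 16 cell cycle genes 9 were higher. The mean level of the adipocyte list, centred per gene, ran from 2.99 to 4.29 in normal glands and from -2.35 to -0.49 in carcinomas. In bulk tissue, fewer cells of a type and less RNA per cell cannot be told apart, and the part of this change in tissue make-up in the results below was not tested.

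Normal glands 2 and 3 stood apart from the other normal glands. Normal gland 3 was the dimmest array and had a skeletal muscle list level of 7.14, against 1.49 in normal gland 2 and -1.47 to 0.10 in the other normal glands. The counts of the group comparison over all members and over the pathway lists are therefore also given without these 2 samples, a choice made after seeing the data. Because their Hnrnp and Sf3 levels were the lowest, leaving them out had to bring the changes of the higher members nearer to 0.

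Carcinomas were first set against normal glands, to see how far these genes differ between tumour and gland. In carcinomas, 8 members were higher and 1 was lower, with 25 not passing an adjusted p of 0.05 (limma, Benjamini-Hochberg over 12789 genes). Over all genes tested, 9.73% were higher and 13.2% lower. Of the 34 members, 30 had a positive change. Their median change was 0.37 on the log2 scale, against 0.01 over all genes. An unadjusted p under 0.05 was seen for 16 of the 34 members and for 4544 of the 12789 genes. The 8 higher members were 6 Hnrnp genes (Hnrnph3, Hnrnpd, Hnrnpul1, Hnrnpa3, Hnrnpa2b1 and Hnrnpm) and 2 Sf3 genes (Sf3b1 and Sf3b3), and the lower one was Sf3b5. With the luminal epithelial list level as a covariate, 8 were higher and 1 lower, against 7.48% and 10.4% of all genes. In that fit Hnrnpr passed (0.59 ± 0.20, adjusted p = 0.0486) and Sf3b1 did not (0.86 ± 0.30, adjusted p = 0.0554).

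All 8 higher calls were lost without normal gland 2 or normal gland 3, the glands with the lowest Hnrnp and Sf3 levels. Without normal gland 2 no member was higher (5.46% of all genes were), with 11 higher at an unadjusted p under 0.05. Without normal gland 3 again none was higher (5.19% of all genes), with 10 at an unadjusted p under 0.05. Without both, 0 members were higher and 0 lower in limma (1.91% and 4.57% of all genes), with 2 higher and 1 lower at an unadjusted p under 0.05. Counts of all genes at an unadjusted p were not made for these fits. Over the 4 remaining normal glands 30 of 34 changes were still positive, with a median of 0.20. Sf3b5 was the 1 lower member without either gland alone (8.77% of all genes were lower without normal gland 2 and 8.5% without normal gland 3).

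**Figure D1:**
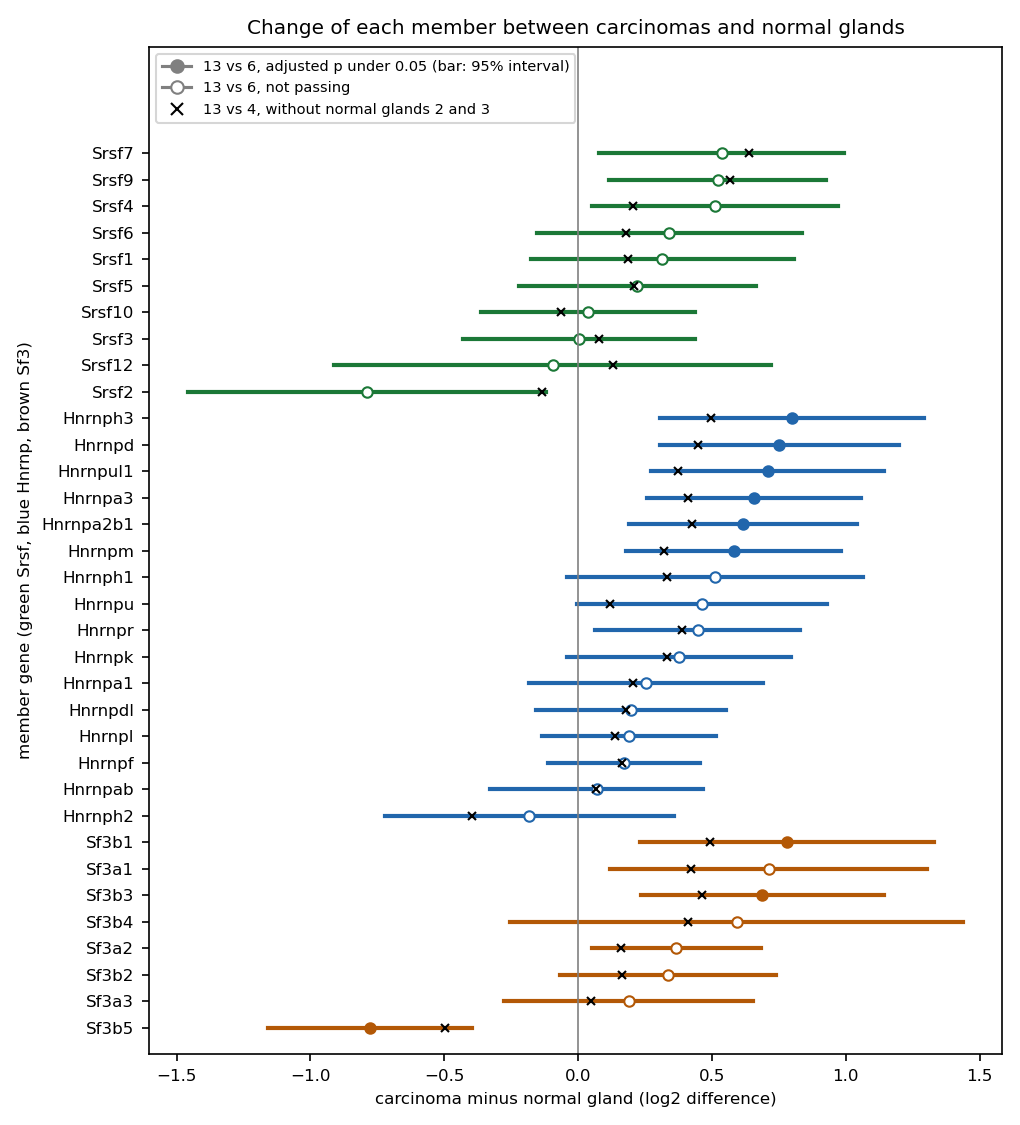
Log2 difference between carcinomas and normal glands for the 34 members (x axis), by family (y axis). Circles are the estimates from 13 carcinomas and 6 normal glands with their 95% intervals, filled where the adjusted p is under 0.05; crosses are the estimates with normal glands 2 and 3 left out. Filled circles are seen for 6 Hnrnp and 3 Sf3 genes and for no Srsf gene. The crosses of all 8 higher members lie nearer to 0 than their circles, which follows from the low levels of the glands left out.

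Among the Hnrnp genes 6 of 16 were higher and none was lower; the median change was 0.45 and 15 of 16 changes were positive. Hnrnph3, an RNA-binding protein of the hnRNP H/F group, which binds G-rich sequences, had levels of -2.67, -1.89 and -0.94 (lowest, median and highest) in normal glands and -1.51, -1.04 and -0.18 in carcinomas. It rose by 0.80 ± 0.24 (SE, n = 13 against 6; adjusted p = 0.0197), a 1.74-fold difference. The groups overlapped: 13 of 13 carcinomas lay above the normal median, but 5 lay above the highest normal gland. Without normal glands 2 and 3 its change was 0.50 ± 0.25 (adjusted p = 0.251).

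Hnrnpd, also called AUF1, binds AU-rich elements and bears on mRNA decay. Its levels were -1.72, -0.94 and -0.54 in normal glands and -1.06, -0.27 and 0.32 in carcinomas. It rose by 0.75 ± 0.21 (adjusted p = 0.0163), with 12 of 13 carcinomas above the normal median and 9 above every normal gland. The 2 lowest values of all 19 were those of normal glands 2 and 3, and without them the change was 0.45 ± 0.22 (adjusted p = 0.244).

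Hnrnpul1 encodes a nuclear protein related to hnRNP U that also takes part in the DNA damage response. It had levels of -0.67, 0.23 and 0.71 in normal glands and 0.12, 0.79 and 1.28 in carcinomas, a rise of 0.71 ± 0.21 (adjusted p = 0.0194). Of its 13 carcinomas 10 lay above the highest normal gland, the largest such number among the 34 members. The change without normal glands 2 and 3 was 0.37 ± 0.20 (adjusted p = 0.287).

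Hnrnpa3 belongs to the hnRNP A/B group, abundant proteins that counter SR proteins at many exons. Its levels were 3.04, 3.81 and 4.14 in normal glands and 3.82, 4.31 and 4.96 in carcinomas. The rise was 0.66 ± 0.19 (adjusted p = 0.0185), and 8 carcinomas lay above every normal gland. Its 4 probes all passed as higher, with changes from 0.66 to 1.25. The probe behind the 1.25 was dim. It stood clear of background in only 3 of 6 normal glands, against 13 of 13 carcinomas. Without normal glands 2 and 3 the Hnrnpa3 change was 0.41 ± 0.20 (adjusted p = 0.240).

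Hnrnpa2b1, another A/B group member, and Hnrnpm, which binds GU-rich introns, rose by 0.62 ± 0.20 (adjusted p = 0.0349) and 0.58 ± 0.19 (adjusted p = 0.0350). For Hnrnpa2b1 only 1 carcinoma lay above the highest normal gland, the letter-coded normal gland 6, which stood at 2.41 while the other 5 ran from 0.96 to 1.69. Without normal glands 2 and 3 their changes were 0.43 ± 0.23 and 0.32 ± 0.20 (adjusted p = 0.295 and 0.364). The Hnrnpa2b1 call was also lost without normal gland 4 or 5 or carcinoma 9 (adjusted p = 0.0506 to 0.0773). The Hnrnpm call was also lost without normal gland 4 or carcinoma 5, 9 or 10 (adjusted p = 0.0508 to 0.0581). The second Hnrnpm probe changed by 0.69 and did not pass in the limma fit of single probes (adjusted p = 0.102). The 10 Hnrnp genes that did not pass had changes from -0.18 (Hnrnph2) to 0.51 (Hnrnph1). Hnrnpab, an A/B-type protein whose change lay nearest 0 in this family, had levels of 5.71, 5.96 and 6.29 in normal glands and 5.15, 6.11 and 6.62 in carcinomas, a difference of 0.07 ± 0.19 (95% interval -0.33 to 0.47; adjusted p = 0.833). Its carcinomas spread on both sides of the normal range, with 4 above and 3 below it. With quantile normalization the Hnrnpab difference was 0.64 ± 0.23 and passed (adjusted p = 0.0474), the only one of 39 alternatives that called it, with adjusted p-values up to 0.996 in the others.

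**Figure D2:**
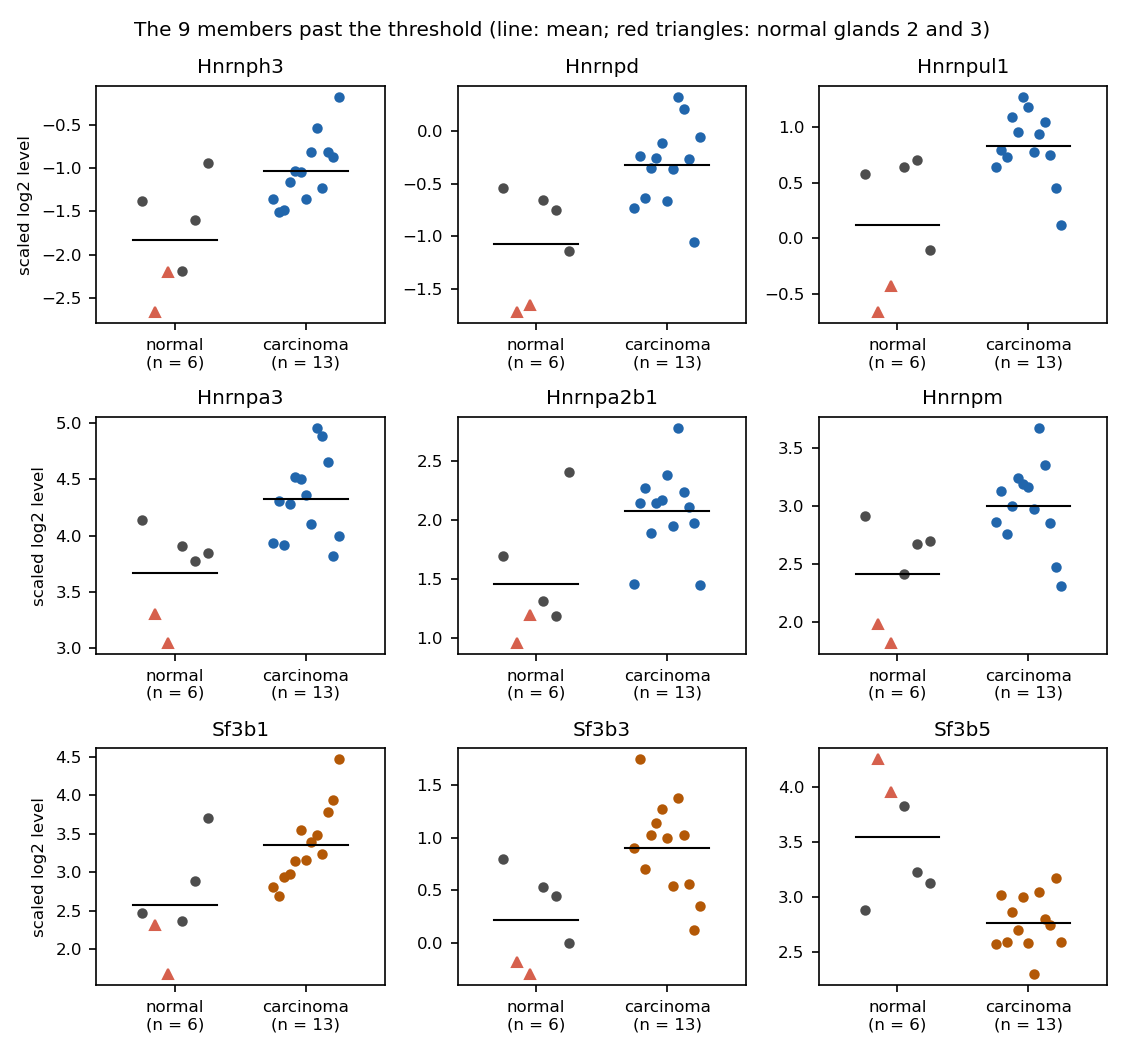
Scaled log2 level (y axis) on each array for the 9 members past the threshold, in 6 normal glands and 13 carcinomas; horizontal lines are group means and red triangles are normal glands 2 and 3. For every higher member except Hnrnpa2b1 the red triangles are the lowest points of all 19 arrays, and for Sf3b5 they are the highest.

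Of the 8 Sf3 genes 2 were higher and 1 was lower, with a median change of 0.48. Sf3b1 encodes the largest SF3b subunit, which holds the branch point region and is recurrently mutated in several human cancers. Its levels were 1.68, 2.42 and 3.70 in normal glands and 2.69, 3.23 and 4.47 in carcinomas. Both of its probes passed as higher. The dimmer one stood clear of background in only 3 of 6 normal glands, against 13 of 13 carcinomas. The brighter one, which stands for the gene, rose by 0.78 ± 0.26 (adjusted p = 0.0376). All 13 carcinomas lay above the normal median and 3 above the highest normal gland, which was again normal gland 6. This was the least stable of the named calls: it was also lost without normal gland 1 or 4, or without carcinoma 6, 9, 11 or 12, with adjusted p-values from 0.0513 to 0.132 over all such fits.

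Sf3b3 is the SF3b subunit with a WD40-like repeat fold, which packs against Sf3b1 and Sf3b5. It had levels of -0.30, 0.22 and 0.80 in normal glands and 0.12, 0.99 and 1.75 in carcinomas, a rise of 0.69 ± 0.22 (adjusted p = 0.0284). Above every normal gland lay 8 carcinomas. Without normal glands 2 and 3 the change was 0.46 ± 0.24 (adjusted p = 0.283), and the call was also lost without normal gland 6 (0.65, adjusted p = 0.0532).

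Sf3b5, a small subunit that binds Sf3b3 within the same complex, went the other way. Its levels were 2.89, 3.53 and 4.26 in normal glands and 2.30, 2.75 and 3.17 in carcinomas. It fell by 0.78 ± 0.18 on the log2 scale (adjusted p = 0.00525), with 13 of 13 carcinomas below the normal median and 9 below the lowest normal gland. Its call held in all 19 fits that left out 1 array, with changes from -0.91 to -0.64. Leaving out normal glands 2 and 3 together gave -0.50 ± 0.18 (adjusted p = 0.0999); those glands had its 2 highest levels. The second Sf3b5 probe changed by -0.71 and did not pass.

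Sf3a3, an SF3a subunit, was the Sf3 gene nearest to no change. It had levels of 1.38, 1.83 and 2.51 in normal glands and 1.04, 2.08 and 3.18 in carcinomas, a difference of 0.19 ± 0.22 (95% interval -0.28 to 0.65; adjusted p = 0.586). The other Sf3 genes that did not pass, Sf3a1, Sf3a2, Sf3b2 and Sf3b4, had changes from 0.34 to 0.71. The second, dimmer Sf3a1 probe did pass as higher in the limma fit of single probes (0.94, adjusted p = 0.00518). Sf3a1 was also called higher in 7 of 39 alternatives. Sf3a2 was the only member with 2 probes of opposite sign, 0.37 and -0.49, and neither passed.

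No Srsf gene passed in either direction in the fit of all 19 arrays. Their median change was 0.27, 8 of 10 were positive, and 4 had an unadjusted p under 0.05. Srsf7, Srsf9 and Srsf4 had the largest positive values, 0.54 ± 0.22, 0.52 ± 0.20 and 0.51 ± 0.22 (adjusted p = 0.0827, 0.0590 and 0.100). This zero depended on the processing: with normexp background correction Srsf4, Srsf7 and Srsf9 were higher and Srsf2 and Srsf12 lower. Srsf9 was also higher when the slide, the day of scanning or the code series entered as a block, and in 2 fits that left out 1 array, and Srsf1 in number-coded samples alone. Leaving out 1 array called Srsf2 in 2 fits and Srsf4 in 1. Srsf3, an SR protein that also acts in mRNA export, was nearest to 0. Its levels were -0.01, 0.25 and 0.63 in normal glands and -0.44, 0.27 and 1.17 in carcinomas, a difference of 0.00 ± 0.21 (95% interval -0.43 to 0.44; adjusted p = 0.991).

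Srsf2, an SR protein of exonic enhancers also known as SC35, had the most negative estimate, -0.79 ± 0.32 (adjusted p = 0.0813). It ran from -0.44 to 2.67 in normal glands, with a median of 0.71, and from -0.37 to 0.62 in carcinomas, with a median of 0.10. All 13 carcinomas lay below the normal median, yet its highest normal value belonged to normal gland 3, and without normal glands 2 and 3 the difference was -0.13. Members that are named with values outside the naming rule, Srsf2 among them, were picked after their values were seen.

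No member had every carcinoma above or every carcinoma below all normal glands; over all genes tested, 0.54% were fully above and 1.93% fully below. Counted by probe, 13 of the 50 member probes were higher and 1 was lower, against 9.52% and 12.8% of all 15084 named probes past the filter. No member had probes that passed in opposite directions.

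**Figure D3:**
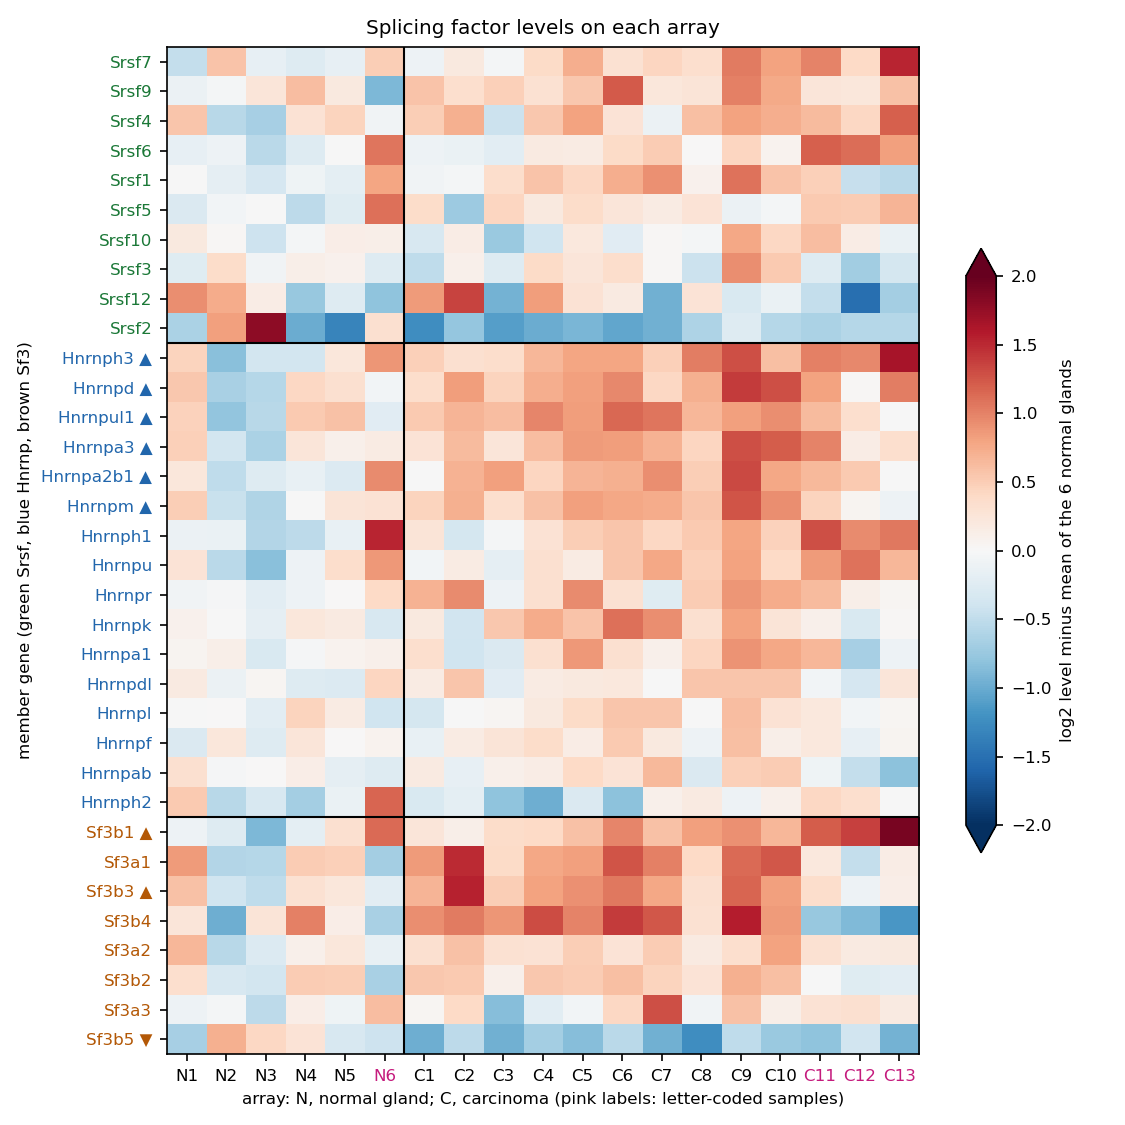
Log2 level of each member (rows, by family) on each array (columns), minus the mean of its 6 normal glands, with the colour scale cut at -2 and 2; triangles beside a name mark members that passed as higher or lower, and pink column labels mark letter-coded samples. Most Hnrnp and Sf3 rows are red over the carcinomas, the red is deepest on carcinoma 9, and the letter-coded columns N6, C11, C12 and C13 share a pattern of their own in several rows.

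Promoter sequence was available in RefSeq (build GRCr8) for 33 of the 34 members, all but Sf3b2. The 250 bases before the annotated start are shown for 4 of the members that passed, 3 that were higher and the 1 that was lower, so that the windows of genes that moved together and apart can be read side by side. Capitals mark matches, on either strand, to any of these motifs: the TATA box as TATAAA, the CCAAT box as its name says, the GC box as GGGCGG, an ETS-type core as CCGGAAG, an E-box as CACGTG and an NRF1-type core as GCATGCGC; overlapping copies were both counted. The windows are Hnrnpd at chr14:9919507-9919756 (plus strand), Hnrnpa3 at chr3:80985684-80985933 (plus strand), Sf3b1 at chr9:64026720-64026969 (minus strand) and Sf3b5 at chr1:9176939-9177188 (plus strand), each 5′ to 3′ along its gene.
Hnrnpd: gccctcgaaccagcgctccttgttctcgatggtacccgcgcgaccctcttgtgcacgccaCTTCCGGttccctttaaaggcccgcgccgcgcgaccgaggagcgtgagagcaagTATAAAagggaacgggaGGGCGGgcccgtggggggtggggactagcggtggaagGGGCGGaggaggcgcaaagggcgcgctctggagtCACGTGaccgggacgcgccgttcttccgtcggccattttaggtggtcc
Hnrnpa3: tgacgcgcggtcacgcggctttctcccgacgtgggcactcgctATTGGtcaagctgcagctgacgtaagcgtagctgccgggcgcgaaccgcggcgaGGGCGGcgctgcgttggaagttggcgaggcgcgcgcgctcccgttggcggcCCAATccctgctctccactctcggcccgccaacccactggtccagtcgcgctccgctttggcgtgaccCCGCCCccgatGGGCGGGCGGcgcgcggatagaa
Sf3b1: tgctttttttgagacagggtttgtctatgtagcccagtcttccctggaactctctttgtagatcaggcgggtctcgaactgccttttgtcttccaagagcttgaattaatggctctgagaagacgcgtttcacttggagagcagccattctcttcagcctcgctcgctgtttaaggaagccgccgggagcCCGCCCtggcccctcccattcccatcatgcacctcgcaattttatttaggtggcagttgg
Sf3b5: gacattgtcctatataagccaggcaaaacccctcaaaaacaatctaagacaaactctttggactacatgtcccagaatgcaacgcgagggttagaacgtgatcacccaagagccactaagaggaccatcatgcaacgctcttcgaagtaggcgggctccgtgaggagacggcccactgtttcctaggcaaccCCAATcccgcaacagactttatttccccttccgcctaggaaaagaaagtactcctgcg

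Hnrnpd held a TATAAA, 2 GC boxes, an ETS-type core and an E-box, while Hnrnpa3 held 4 GC boxes and 2 CCAAT motifs. Sf3b1 held a single GC box and Sf3b5 a single CCAAT. A GC box lay in 23 of the 33 member windows (69.7%), against 51.9% of windows of genes tested and 32.4% of all 27457 windows in the table. A CCAAT motif lay in 16 (48.5%), against 35.4% of genes tested and 34.3% of all windows. By family, CCAAT lay in 4 of 10 Srsf, 11 of 16 Hnrnp and 1 of 7 Sf3 windows, a difference that was not tested. The CCGGAAG core lay in 7 member windows (21.2%, against 13.0% of genes tested and 7.74% of all), TATAAA in 5 (15.2%, against 9.12% and 13.1%), CACGTG in 5 (15.2%, against 7.62% and 5.79%) and GCATGCGC in 2 (6.06%, against 3.84% and 2.38%). The windows of Hnrnph3 and Sf3b3, also higher but not shown, held no match to any of the motifs. Among the 8 higher members, 4 windows held a GC box and 4 a CCAAT motif. These are matches of letters in a window, not measured binding sites.

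Co-variation with array brightness was then examined, because carcinoma arrays were brighter than normal gland arrays. Since levels are scaled by each array's 75th percentile, a slope of -1 is what an unscaled signal that does not move with brightness would give, and a slope of 0 a signal that rises in step with the array. Among the 13 carcinomas no member and no gene at all had a slope past the threshold in limma (0% rising and 0% falling). An unadjusted p under 0.05 was seen for 5 of the 34 members and for 1848 of the 12789 genes. The members' slopes ran from -1.13 to 0.31 log2 units per log2 unit of brightness, with a median of -0.13, against a median of -0.15 over all genes.

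The family medians were 0.07 for Srsf, -0.20 for Hnrnp and -0.31 for Sf3. Sf3b4, an SF3b subunit that binds RNA near the branch point, had the steepest slope, -1.13 ± 0.54 (95% interval -2.30 to 0.03; adjusted p = 0.354). With the code series held in the fit its slope was -0.21 ± 0.29, and within the 10 number-coded carcinomas it was -0.22 ± 0.30. Sf3a3 had a slope of -0.74 ± 0.28 (adjusted p = 0.272), and within number-coded carcinomas -1.04 ± 0.30 (adjusted p = 0.178); its highest carcinoma level, 3.18, was on the dimmest carcinoma array, carcinoma 7.

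Among the 6 normal glands no slope passed either, with 5 of the 34 members and 832 of the 12789 genes at an unadjusted p under 0.05. There 27 of 34 member slopes were positive, with a median of 0.41 against 0.05 over all genes. The steepest was that of Srsf2, -2.23 ± 0.81 (adjusted p = 0.754), and the next that of Sf3a1, 1.25 ± 0.60 (adjusted p = 0.769). The difference in slope between carcinomas and normal glands passed for no member and no gene. At an unadjusted p under 0.05 were 9 of the 34 members and 1206 of the 12789 genes. Over all 19 arrays with no term for the group, 5 members rose with brightness (Sf3b1, Hnrnph3, Hnrnpd, Srsf4 and Hnrnpa3) and 2 fell (Srsf2 and Sf3b5), against 8.35% and 12.5% of all genes. Of those 7, all but Srsf4 and Srsf2 also passed between the groups.

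**Figure D4:**
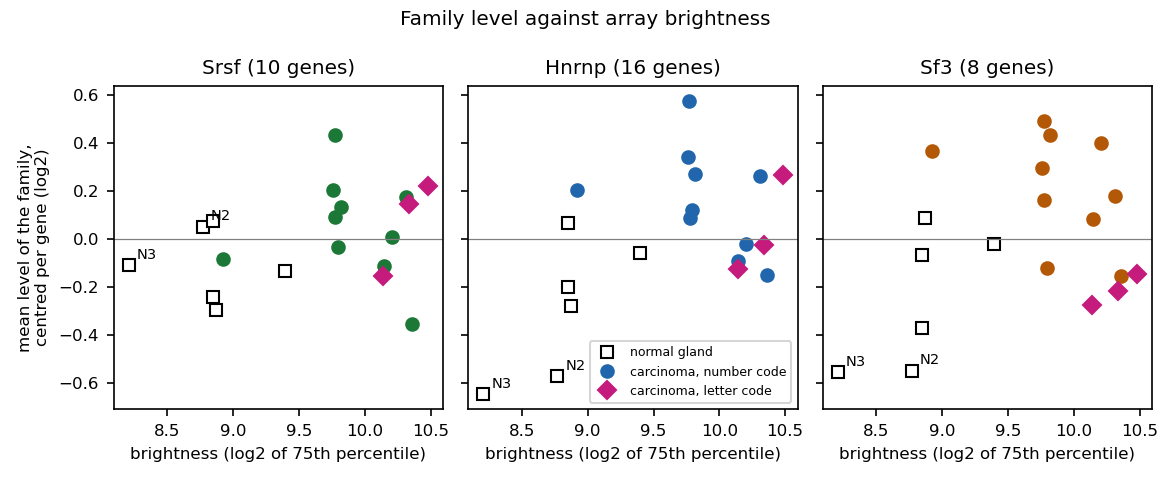
Mean level of each family per array, centred per gene (y axis, log2), against array brightness (x axis, log2 of the 75th percentile of signal); open squares are normal glands, filled circles number-coded carcinomas and pink diamonds letter-coded carcinomas. The normal glands lie at the dim end, normal glands 2 and 3 have the lowest Hnrnp and Sf3 values, and 1 carcinoma lies within the brightness range of the normal glands.

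With brightness as a covariate in the comparison of the groups, 0 members were higher and 0 lower, against 0.086% and 1.36% of all genes. At an unadjusted p, 4 of the 34 members and 1843 of the 12789 genes passed 0.05. The members' median change in that fit was 0.41, with larger errors: Hnrnpul1 differed by 0.82 ± 0.37 (adjusted p = 0.309) and Hnrnpd by 0.47 ± 0.37 (adjusted p = 0.563). Only 1 carcinoma array lay within the brightness range of the normal glands, so brightness and group overlapped on few arrays.

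Sample codes gave a second axis among the carcinomas, tested after the pattern had been seen. In the 3 letter-coded carcinomas against the 10 number-coded ones, 3 members were higher (4.89% of all genes were) and 6 were lower (13.9%). All 3 letter-coded carcinomas were on slide 3 with number-coded carcinomas 8 and 10. On slide 3 alone, 3 against 2, no gene passed in either direction. There 5 of the 34 members and 2719 of the 12789 genes had an unadjusted p under 0.05. What the codes stand for was not tested.

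Of the 6 lower members 4 were SF3 subunits. Sf3b4 ran from -3.95 to -3.55 in the letter-coded carcinomas and from -2.49 to -1.22 in the number-coded ones, a difference of -1.99 ± 0.24 (adjusted p = 0.000236). These ranges did not overlap, and on slide 3 alone the difference was -1.51. Sf3a1, a scaffold subunit of SF3a, differed by -0.98 ± 0.25 (adjusted p = 0.0148), and also did not overlap, with -1.81 to -1.13 against -0.94 to 0.17. Sf3b2, the SF3b partner of Sf3b4, differed by -0.64 ± 0.15 (adjusted p = 0.00923), with 1.38 to 1.63 against 1.73 to 2.34.

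The opposite was seen for 3 members. Sf3b1 ran from 3.79 to 4.47 in letter-coded and from 2.69 to 3.55 in number-coded carcinomas, a difference of 0.93 ± 0.20 (adjusted p = 0.00764). Srsf6, an SR protein, ran from 2.33 to 2.71 against 1.30 to 2.01 and differed by 0.92 ± 0.18 (adjusted p = 0.00372). Hnrnph1, an hnRNP H/F protein, ran from 3.79 to 4.14 against 2.50 to 3.63 and differed by 0.76 ± 0.21 (adjusted p = 0.0212). None of these 3 ranges overlapped. The members named here and above were picked by this same contrast, and the share of all genes without overlap was not counted. Sf3b1 was higher and its complex partners Sf3b4, Sf3b2 and Sf3b3 were lower in the letter-coded carcinomas, though the Sf3b3 ranges overlapped. Sf3b5, of the same complex, did not pass in this contrast (0.09 ± 0.18, adjusted p = 0.769). The Sf3b1 call was lost without carcinoma 13.

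The remaining lower members were Sf3b3 (-0.73 ± 0.22, adjusted p = 0.0340), Hnrnpab (-0.69 ± 0.21, adjusted p = 0.0345) and Hnrnpm (-0.59 ± 0.19, adjusted p = 0.0420), whose ranges in the 2 kinds of carcinoma overlapped. Without carcinoma 12 only Sf3b4 was lower, without carcinoma 13 there were 1 higher and 3 lower, and without carcinoma 5 there were 3 lower. The shares of all genes called in these fits are not given here. For 6 of these 9 members the letter-coded normal gland 6 lay outside the other 5 normal glands, on the side of the letter-coded carcinomas. The share of all genes with this pattern was not counted. Normal gland 6 was also the only normal gland on slide 3, so code and slide cannot be told apart among the normal glands. Sf3b1 (3.70), Srsf6 (2.58) and Hnrnph1 (4.38) were above the other 5 normal glands, whose highest values were 2.89, 1.50 and 2.73. Sf3a1 (-2.01), Sf3b2 (0.98) and Hnrnpab (5.71) were below the other 5, whose lowest values were -1.92, 1.26 and 5.80. For Sf3b4, Sf3b3 and Hnrnpm it lay within the range of the other 5, and its Hnrnpm level, 2.70, was above all but 1 of them. With the code series as a block in the comparison of the groups, 11 members were higher and 1 lower, against 12.5% and 14.9% of all genes.

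**Figure D5:**
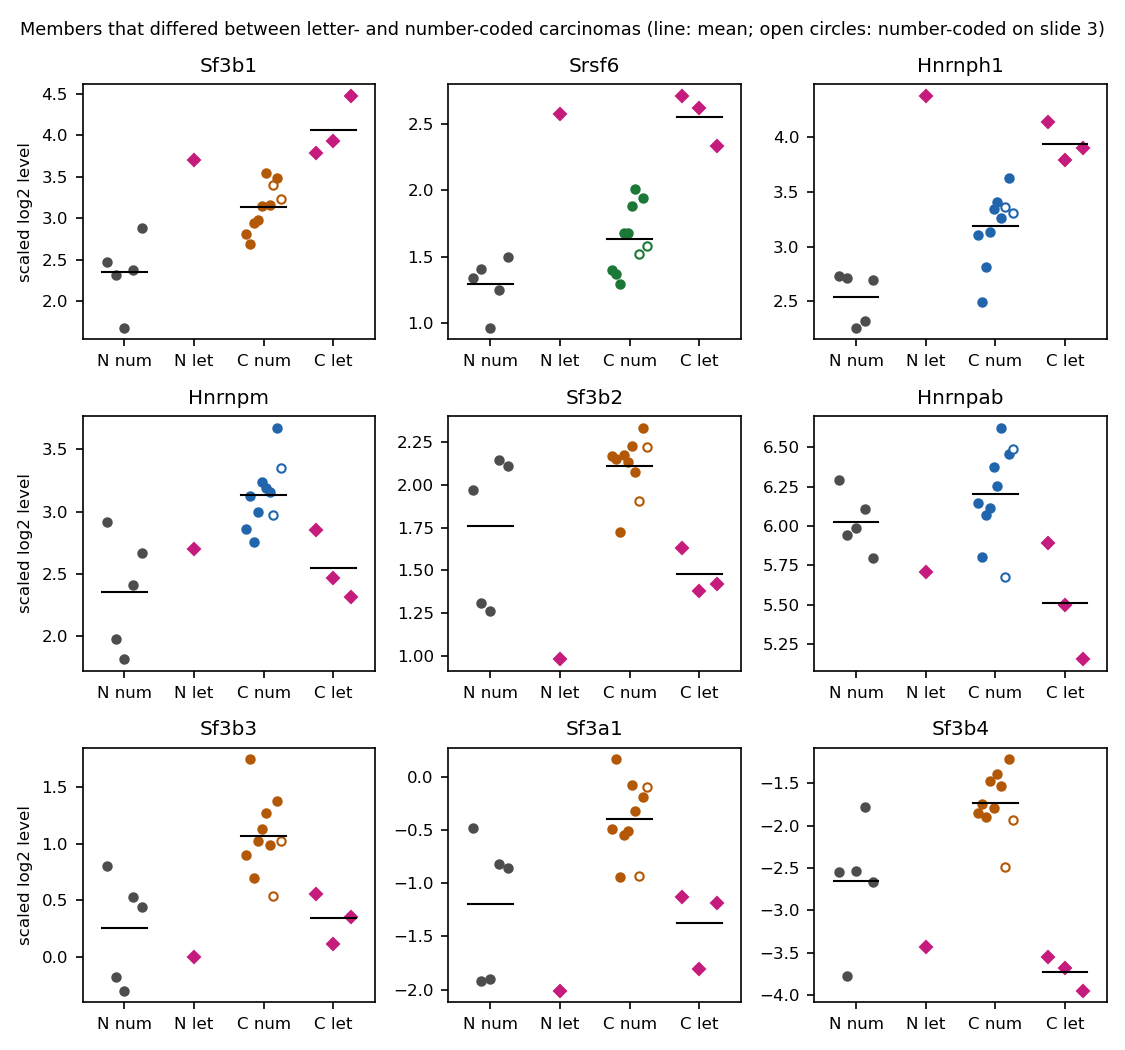
Scaled log2 level (y axis) of the 9 members that differed between letter- and number-coded carcinomas, for number-coded (N num) and letter-coded (N let) normal glands and number-coded (C num) and letter-coded (C let) carcinomas; lines are means and open circles are number-coded carcinomas on slide 3. The letter-coded normal gland lies on the same side of its group as the letter-coded carcinomas for Sf3b1, Srsf6, Hnrnph1, Sf3b2, Sf3a1 and Hnrnpab, and within the range of the number-coded normal glands for Hnrnpm, Sf3b3 and Sf3b4. That gland is also the only normal gland on slide 3.

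The members also varied together within the carcinomas. Over the 561 pairs of members the median Pearson correlation across 13 carcinoma arrays was 0.26, against 0.02 over all pairs of genes. Across the 10 number-coded carcinomas it was 0.41, against 0.02. These values are a description: the points share array scaling, slide and tissue make-up. The mean member level, centred per gene, was highest in carcinoma 9 (0.51) and lowest among carcinomas in carcinoma 3 (-0.21). Carcinoma 9 also had the highest cell cycle list level of the 19 arrays, 1.80; its part in the result was not tested. The median SD of a member was 0.41 among carcinomas, below the 0.60 of all genes, and 0.51 among normal glands, near the 0.52 of all genes.

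Other splicing genes were taken from 6 lists drawn up with earlier results known. Of 122 measured genes 35 were higher, 1 was lower and 86 did not pass, against 9.73% higher and 13.2% lower over all genes, with a median change of 0.38. Of 20 SR-related proteins and SR kinases 6 were higher, led by the SR protein kinase Srpk2 (1.12 ± 0.17, adjusted p = 0.000109) and the splicing regulator Sfswap (0.81 ± 0.23, adjusted p = 0.0168). Of 14 genes on the list of U2 partners of SF3, 7 were higher, led by Htatsf1, which binds Sf3b1 (1.07 ± 0.18, adjusted p = 0.000364). Next came Bclaf1 (1.02 ± 0.29, adjusted p = 0.0146), which is grouped here by that list alone. Of 10 U1 and core Sm proteins 2 were higher, the U1-associated Luc7l3 (1.20 ± 0.22) and Luc7l2 (0.59 ± 0.12), and Snrpn was lower.

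Of 34 tri-snRNP and catalytic step genes 8 were higher, led by Prpf38b (0.95 ± 0.21) and Prpf8, the core of the catalytic centre (0.89 ± 0.20). Of 34 other regulators of alternative splicing 9 were higher, led by Syncrip (0.92 ± 0.23) and Rbm6 (0.87 ± 0.25). Of 10 exon junction complex and decay genes 3 were higher, led by Smg6 (1.63 ± 0.39) and Upf3b (1.28 ± 0.24). Without normal glands 2 and 3, 9 of the 122 were higher, against 1.91% of all genes: Srpk2, Clk2, Htatsf1, Luc7l2, Luc7l3, Ewsr1, Rbm5, Esrp2 and Upf3b.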

How the data were processed

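Intensity values were deposited as 1 scanner file per sample; the submitters' processing notes name version 10.7.3.1 of Agilent's Feature Extraction software; the authors' log2 table was also deposited, and differed from the values used here by a constant per array. Flags for uneven, outlying and well-above-background spots were read as deposited, per the file headers. Here the processed signal was put on the log2 scale and the array's 75th percentile subtracted; flagged spots (403 to 1069 per array) were left out and spots of a probe averaged. A probe was kept when well above background on at least 6 arrays, and the probe with the highest mean stood for its gene. No spot was saturated. Names came from RefSeq by accession: 18005 of 30367 probes had a symbol. Groups were compared with limma 3.58.1 in R 4.3.3 (lmFit, eBayes with an intensity trend), 2-sided, adjusted over all 12789 genes; slopes on brightness used the same fit. The number of arrays limits the precision. The procedure was tested on simulated data.

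Full values are given for the up to 4 largest changes per family and direction past the threshold, for probes passing in opposite directions, for the member nearest 0 per family, and for the 2 steepest slopes past the threshold, of which there were none; 2 genes are named per pathway list. Members, lists and comparisons were chosen with earlier results of these data known. RefSeq also lists pseudogenes for some members, 51 of them for Hnrnpa1; which copies a probe reads was not tested. Protein-coding family members with no matched probe (Hnrnpul2, Srsf11, Hnrnpll, Sf3b6, Hnrnpc, Hnrnpa0, Hnrnpcl1 and Srsf8) were not analysed here. Alternatives covered background correction, scaling, filters, probe choice, slide, scan day, code series, covariates and each array left out.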

Additional observations from a re-analysis of the deposited data

Results flagged for a closer look

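Among the normal glands, 6 members had 1 array whose gap to the nearest other value exceeded the critical share of the whole range in a Dixon test for 6 samples. Of these, 5 belonged to normal gland 6, the letter-coded one, which stood high for Hnrnph1 (4.38, next 2.73), Srsf5 (3.00, next 1.89), Srsf6 (2.58, next 1.50), Hnrnpr (1.40, next 1.01) and Srsf1 (-0.79, next -1.59). Normal gland 3 stood low for Hnrnpa1 (2.25, next 2.53). Chance flags about 1 in 20 groups of this size, and 34 members were examined. The carcinomas, 13 in number, were not examined this way.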

How the results depend on the processing

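The 8 higher members became 14 with normexp background correction (7.26% of all genes were higher). That correction moved the median of all genes to -0.37 and the members' median to 0.41. In number-coded samples alone 13 members were higher (12.8% of all genes). None was higher with brightness (0.086% of all genes) or the share of spots well above background (1.77%) as a covariate. Within slide 1 or 2 alone none was higher (1.2% and 0.352% of all genes). Again none was higher without normal glands 2 and 3 (1.91%), an alternative chosen after seeing the data. Leaving out 1 array gave 0 to 10 higher (5.19% to 11.3% of all genes), with 0 without normal gland 2 or 3 and 5 without carcinoma 9. It gave 1 to 2 lower (8.5% to 14.3% of all genes), with 2 without normal gland 4 or 5. The 1 lower member became 3 with normexp, where 41.1% of all genes were lower. None was lower with either covariate (1.36% and 4.91% of all genes) or within slide 1 or 2 alone (4.18% and 2.09%). Without normal glands 2 and 3 none was lower either (4.57%). The cause was not tested. The members' median change ran from 0.30 to 0.45 over the fits that left out 1 array, and was 0.089 on slide 3 alone, which holds 1 normal gland.

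With the number shared by samples 1 to 6 as a replicate block, 2 members were higher and 1 lower, against 7.42% and 10.4% of all genes. The numbers were not treated as pairing: same-numbered samples correlated from -0.05 to 0.11, and 1 correlated best with its own number. Quantile scaling, slide, scan day and code blocks gave 10 or 11 higher. In each of these fits the share of all genes called higher was also above that of the main fit. It reached 12.5% with code blocks. Brightness slopes among carcinomas gave 0 members rising and 0 falling in every fit that left out 1 carcinoma. With normexp 1 member fell, and the share of all genes in that fit is not given here. With both groups and no group term 5 rose and 2 fell, against 8.35% and 12.5% of all genes. Letter-coded carcinomas had 0 higher and 0 lower on slide 3 alone, where no gene passed. With 1 carcinoma left out they had 1 to 3 higher and 1 to 7 lower. The shares of all genes called in those fits are not given here. A change of sign of a member that passed in neither fit was not counted as a reversal. Of the members called in the main comparison, Hnrnpa2b1 alone changed sign, to -0.46 on slide 3 alone, where it did not pass. Signal near background limits Srsf12.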
